A study of Rattus norvegicus with 8 samples.

Results

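The genes described here encode the subunits of AMPA and kainate receptors, the ion channels that pass most of the fast excitatory current between neurons. The family comprised 9 genes, Gria1 to Gria4 for the AMPA subunits GluA1 to GluA4 and Grik1 to Grik5 for the kainate subunits GluK1 to GluK5. Every non-control probe whose RefSeq transcript accession mapped to one of these genes was taken, which gave 10 of the 41012 probes on the array and covered 7 genes. Of these probes 7 belonged to AMPA subunits and 3 to kainate subunits. Grik2 and Grik5 had no probe under this rule and were not analysed here. The family was chosen by its difference between treated and control rats on these arrays, in which 1 Gria4 probe had passed the test. The differences between the groups are therefore given for these genes as a description, with no test of their own.

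RNA was taken from whole hippocampi of male Wistar rats, 4 arrays per group, and hybridised in 1 colour (Cy3) to Agilent rat arrays. The control rats ate the standard feed CE-2 from 6 weeks of age until they were killed at 8 weeks. For the treated rats 0.1% coral calcium hydride, abbreviated CCH, was mixed into this feed over the same ages. No other treatment is used here, although free-text descriptions of the samples mention a lesion model and injections that contradict the titles, which set the groups. The labels do not say whether each array came from a separate rat, so the spread is that between these samples. All 4 controls were hybridised on slide 1 and all 4 CCH samples on slide 2, and the slides were scanned separately. Diet, slide and scan therefore cannot be told apart in any value below.

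AMPA receptors are tetramers of GluA1 to GluA4. GluA1 is the subunit most tied to activity-dependent insertion at hippocampal synapses, and edited GluA2 makes the channel nearly impermeable to calcium. GluA4 is characteristic of fast-spiking interneurons in the adult hippocampus. Among kainate subunits GluK1 is prominent in interneurons, while GluK4 and GluK5 bind glutamate with high affinity and need GluK1, GluK2 or GluK3 as partners to form a channel.

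The files hold no probe sequences, and the regulatory sequence shown is that upstream of the start sites of Gria4 and Grik1, whose lower probes are described below. The RefSeq promoter table of the assembly GRCr8 held 6 of the 9 genes, namely Gria4 and Grik1 to Grik5. The 250 bases before each start are given 5′ to 3′, with matches to the E-box CAGCTG in capitals. The Gria4 stretch is chr8:10319882-10320131 and the Grik1 stretch chr11:41056504-41056753, both on the minus strand.
Gria4: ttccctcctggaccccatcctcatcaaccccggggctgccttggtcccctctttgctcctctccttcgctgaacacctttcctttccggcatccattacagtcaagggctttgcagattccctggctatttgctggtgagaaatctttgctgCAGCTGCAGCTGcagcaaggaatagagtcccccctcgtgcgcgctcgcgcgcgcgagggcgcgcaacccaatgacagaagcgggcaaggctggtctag
Grik1: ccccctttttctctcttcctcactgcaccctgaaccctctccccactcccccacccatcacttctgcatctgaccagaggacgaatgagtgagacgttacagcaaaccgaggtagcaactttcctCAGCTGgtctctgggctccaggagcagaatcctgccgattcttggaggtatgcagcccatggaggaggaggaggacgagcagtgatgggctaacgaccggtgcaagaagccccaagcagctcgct

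The motifs were picked after these stretches had been seen, and 5 were searched on both strands. CAGCTG occurred 2 times before Gria4 and 1 time before Grik1, and it was not found in the other 4 receptor stretches. At least 1 match to CAGCTG was found in 12% of 33469 promoters and at least 2 in 1.04%. The CCAAT box core CCAAT was found 1 time each before Gria4 and Grik2, and in 34% of all promoters. The GC box core GGGCGG was found 5 times before Grik3 and 1 time before Grik5, and in 30.5% of all promoters. Neither the TATA box core TATAAA, found in 12.9% of all promoters, nor TGACGTCA, found in 1.59%, matched any of the 6 stretches. These matches describe letters in a window of 250 bases and show no binding. The guanine and cytosine share was 59.6% before Gria4 and 57.6% before Grik1, against a median of 51.2% over all promoters.

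All 10 receptor probes passed the filter on dim probes, 9 of them well above background on all 8 arrays. Grik3 was well above background on 7 arrays and missed it on CCH replicate 4. Values below are log2 processed signals minus the 75th percentile of the same array, called levels, and the level of 1 probe is not set against that of another. At a limma adjusted p under 0.05 over all tested probes, 1 of the 10 receptor probes was called, and 55 of 31612 tested probes were called (0.174%). By direction 0.0759% of the tested probes were called higher in CCH and 0.0981% lower, and the receptor probe was lower. The rule for choosing the family used this contrast, so nothing is read from that count. Of the receptor probes 5 were lower and 5 higher in CCH, with a median log2 difference of -0.03, against 0.03 over all tested probes, of which 44.9% were lower. The receptor median was 0.06 without control replicate 4 or when only probes well above background on all arrays were kept, and 0.01 without CCH replicate 4. The groups did not overlap in 4 receptor probes, all lower in CCH, and in 11.3% of all tested probes (4.69% lower and 6.59% higher in CCH).

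**Figure D1:**
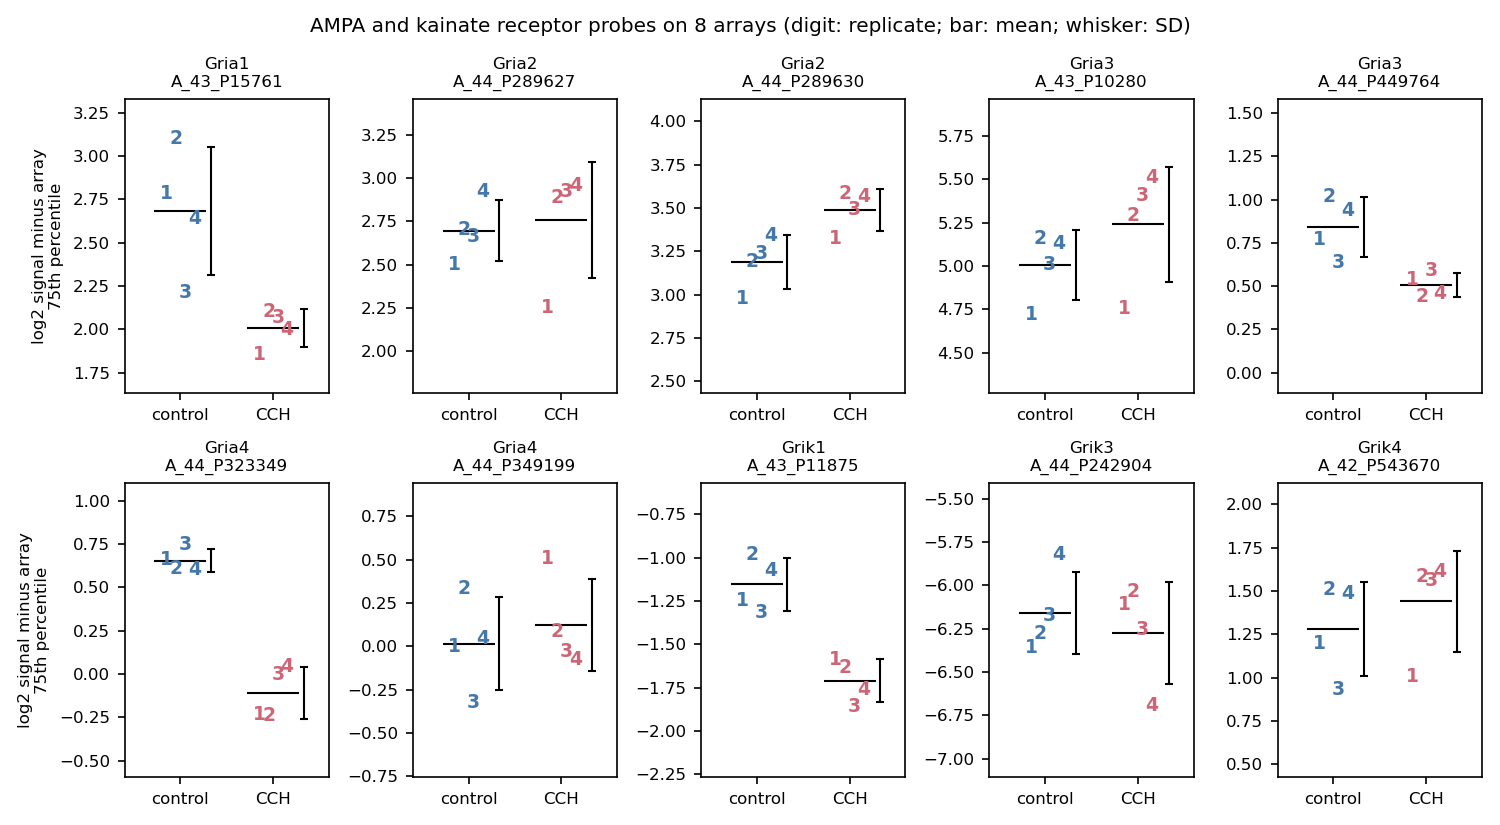
Levels of the 10 receptor probes on each array, as log2 processed signal minus the 75th percentile of the array, with a separate axis of equal span per probe. Digits are replicate numbers, bars are group means and whiskers are the SD of 4 arrays; the groups separate for Gria1, for A_44_P449764 of Gria3, for A_44_P323349 of Gria4 and for Grik1, each with CCH below control.

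Gria4 had 2 probes that gave unlike results. On probe A_44_P323349 the control levels were 0.66, 0.61, 0.75 and 0.60 for replicates 1 to 4, and the CCH levels were -0.24, -0.24, -0.00 and 0.04. Every control array lay above every CCH array, with a gap of 0.56 between the lowest control and the highest CCH array. The control mean was 0.65 ± 0.07 (SD, n = 4) and the CCH mean was -0.11 ± 0.15 (SD, n = 4). The log2 difference of -0.76 ± 0.10 (SE) corresponds to a signal 1.70-fold lower in CCH. This was the probe called over all tested probes (limma adjusted p = 0.0398), the value that led to the choice of the family. Before scaling between arrays the groups were also apart, with processed signals of 858 to 1105 in the controls and 633 to 748 in CCH. Unscaled signals still hold the brightness of the array, whose 75th percentile was 563 to 700 in the controls and 642 to 882 in CCH. Unscaled signals were apart with CCH higher for A_44_P289630 of Gria2 (5160 to 5918, then 7381 to 8977). The same held for A_43_P10280 of Gria3 (18449 to 20366, then 23845 to 29255).

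The call on A_44_P323349 depended on which arrays were kept. With 1 array left out at a time the log2 difference ran from -0.81 to -0.72. Since the groups did not overlap, leaving out 1 array could not turn the direction, and nothing is read from that. The probe stayed called only without CCH replicate 1 (limma adjusted p = 0.0355), where 708 of all tested probes were called. Without any other single array the limma adjusted p was between 0.0919 (without CCH replicate 4) and 0.145 (without control replicate 1). Over all 20 alternatives it was between 0.0166 and 0.172, and the probe was called in 10 of them. The direction was the same each time, but settings that change only the filter or the test leave the estimate as it is.

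The other Gria4 probe, A_44_P349199, carried the same RefSeq transcript accession, NM_017263. Its control levels were 0.00, 0.33, -0.32 and 0.04, and its CCH levels were 0.51, 0.09, -0.03 and -0.08. The groups overlapped, and the highest level was that of CCH replicate 1. The control mean of 0.01 ± 0.27 (SD, n = 4) and the CCH mean of 0.12 ± 0.27 (SD, n = 4) differed by a log2 of 0.11 ± 0.17 (SE). With 1 array left out it ran from -0.02 without CCH replicate 1 to 0.21 without control replicate 2. A lower Gria4 signal in CCH was thus measured by 1 of 2 probes for the gene.

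Gria1 had 1 probe, A_43_P15761, printed in 10 spots on each array. Its control levels were 2.78, 3.10, 2.21 and 2.64, and its CCH levels were 1.86, 2.11, 2.07 and 2.00. The CCH arrays lay close together below all controls, and control replicate 3 came within 0.11 of the highest of them. The control mean was 2.69 ± 0.37 (SD, n = 4) and the CCH mean 2.01 ± 0.11 (SD, n = 4). The log2 difference was -0.68 ± 0.18 (SE), a signal 1.60-fold lower in CCH, and the probe was not called. It ran from -0.84 without control replicate 3 to -0.54 without control replicate 2. Before scaling the groups overlapped, since control replicate 3 had a mean signal of 2769 against 2562 to 3221 in CCH.

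The repeated spots show how far a level can be trusted within an array. The 10 Gria1 spots of an array had a coefficient of variation of their signals between 2.38% and 7.50%, with marked spots counted. The SD of their log2 levels was 0.03 to 0.11, which is below the SD of 0.37 between the 4 control arrays. Between the 4 CCH arrays the SD was 0.11, against 0.03 to 0.05 between the spots within each of those arrays. The spots of control replicate 2 ran from 2.94 to 3.20 and those of control replicate 3 from 2.11 to 2.27, so these control arrays differed by more than their spots. On control replicate 4, 2 Gria1 spots with an outlier mark were left out of the mean. The repeated Gria2 probe had a coefficient of variation of 3.03% to 4.87% over its 10 spots. Spot agreement bears on the array and not on the differences between samples or slides.

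Gria2 was higher in CCH on the repeated probe and near 0 on the other. On probe A_44_P289630 the control levels were 2.98, 3.19, 3.24 and 3.34, and the CCH levels were 3.32, 3.58, 3.49 and 3.57. The groups overlapped only in that CCH replicate 1 lay 0.02 below control replicate 4. The control mean of 3.19 ± 0.15 (SD, n = 4) and the CCH mean of 3.49 ± 0.12 (SD, n = 4) gave a log2 difference of 0.30 ± 0.11 (SE). On probe A_44_P289627 the control levels were 2.50, 2.70, 2.66 and 2.92, and the CCH levels were 2.25, 2.89, 2.92 and 2.96. CCH replicate 1 was the lowest of the 8 arrays there, and the other CCH arrays lay near the highest control. The log2 difference of 0.06 ± 0.17 (SE) became 0.23 without CCH replicate 1, -0.01 without control replicate 1 and -0.08 with a covariate for choroid plexus markers. Neither Gria2 probe was called.

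Gria3, whose subunit often assembles with GluA2, had probes that pointed in opposite directions and carried different RefSeq transcripts. Probe A_44_P449764, with NM_032990, had control levels of 0.77, 1.02, 0.64 and 0.94 and CCH levels of 0.54, 0.44, 0.59 and 0.46. All CCH arrays lay below all controls, with a gap of 0.04. The log2 difference was -0.33 ± 0.10 (SE) and ran from -0.40 to -0.27 with 1 array left out. Probe A_43_P10280, with NM_001112742, had control levels of 4.72, 5.16, 5.01 and 5.13 and CCH levels of 4.76, 5.29, 5.40 and 5.51. The first replicate of each group was low, and the other CCH arrays lay above every control. The log2 difference was 0.24 ± 0.18 (SE), with 0.40 without CCH replicate 1 and 0.08 with the choroid plexus covariate. Neither Gria3 probe was called, and the difference between the probes was not tested.

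Grik1, the gene of the GluK1 subunit, was the kainate gene with the largest difference. On probe A_43_P11875 the control levels were -1.25, -0.98, -1.32 and -1.07, and the CCH levels were -1.59, -1.63, -1.86 and -1.76. All CCH arrays lay below all controls, with a gap of 0.27. The control mean was -1.15 ± 0.16 (SD, n = 4) and the CCH mean -1.71 ± 0.12 (SD, n = 4). The log2 difference was -0.56 ± 0.11 (SE), a signal 1.47-fold lower in CCH. It missed the threshold, and it passed with array weights (limma adjusted p = 0.0260) and without CCH replicate 1 (limma adjusted p = 0.0479). In these settings 1339 and 708 of all tested probes were called, against 55 in the main setting. Over all 20 alternatives the limma adjusted p was between 0.0260 and 0.190, and the log2 difference between -0.61 and -0.45. Before scaling the signals overlapped, at 239 to 295 in the controls and 181 to 293 in CCH.

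Grik4, the gene of a high-affinity subunit prominent in CA3, had control levels of 1.20, 1.51, 0.93 and 1.48 and CCH levels of 1.00, 1.58, 1.56 and 1.61 on probe A_42_P543670. CCH replicate 1 lay apart from the other 3 CCH arrays, which were above every control. The log2 difference was 0.16 ± 0.18 (SE), 0.30 without CCH replicate 1, 0.04 without control replicate 3 and -0.01 with the choroid plexus covariate. Grik3, the gene of a subunit with low glutamate affinity, gave a dim signal of 6.19 to 12.8 on probe A_44_P242904. Its control levels were -6.36, -6.28, -6.17 and -5.82, and its CCH levels were -6.11, -6.03, -6.26 and -6.70. The groups overlapped, with a log2 difference of -0.12 ± 0.17 (SE) that was 0.02 without CCH replicate 4 and -0.27 with normexp background correction. Neither probe was called.

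**Figure D2:**
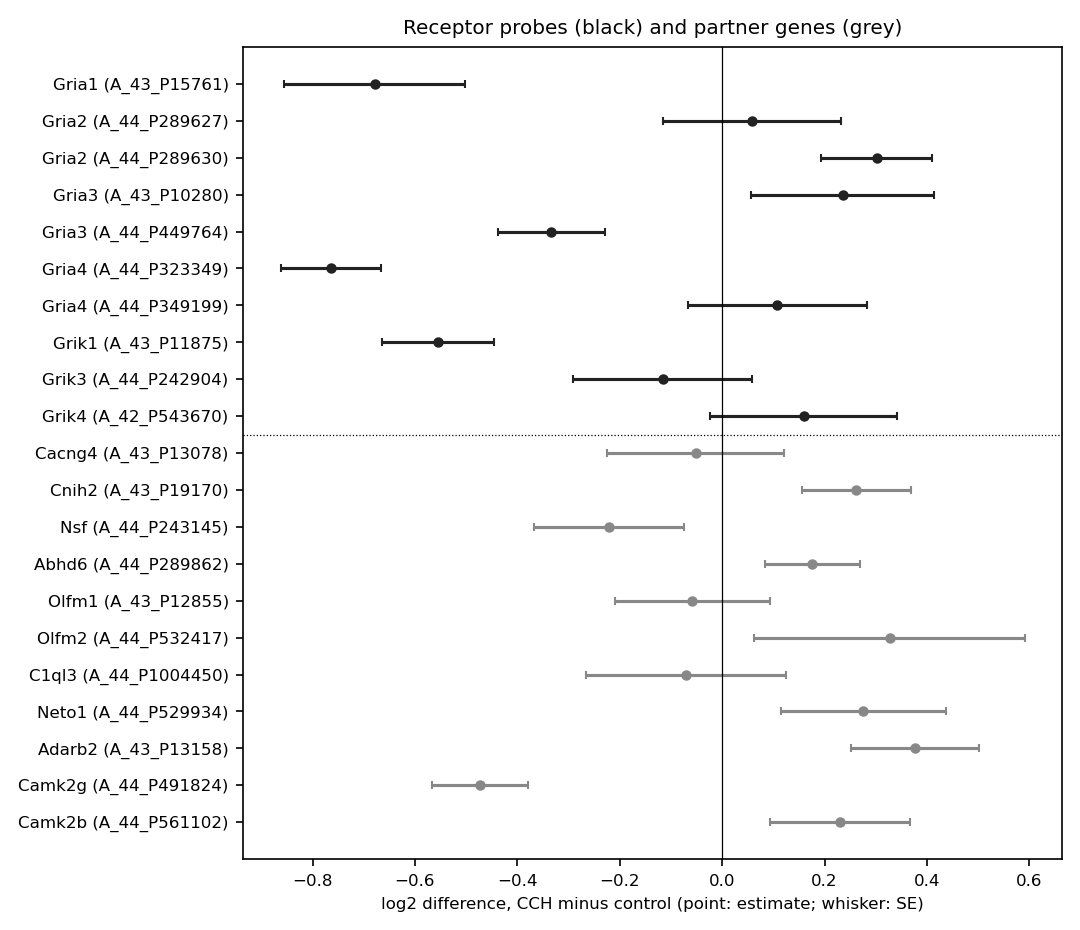
Log2 differences of CCH minus control for the 10 receptor probes (black) and for 11 partner genes (grey), the extremes of 6 gene lists. Points are limma estimates and whiskers are their SE over 4 arrays per group; the lowest receptor values are -0.76 for A_44_P323349 of Gria4 and -0.68 for Gria1, and the other Gria4 probe is at 0.11.

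Whether probes of 1 gene follow each other was also asked without the diet contrast, from the deviation of each array from its group mean. Over the 8 arrays the Gria2 probes moved together, with a Pearson r of 0.85 (two-sided exact permutation p = 0.0139 within groups, 0.0339 adjusted over 3 pairs). Their Spearman rho was 0.76 (exact permutation p = 0.0590, 0.104 adjusted). Without the first replicate of each group, the arrays farthest from the median, the Gria2 r fell to 0.54. The Gria4 probes moved in opposite directions, with a Pearson r of -0.74 (two-sided exact permutation p = 0.0226 within groups, 0.0339 adjusted over 3 pairs). Their Spearman rho was -0.67 (exact permutation p = 0.0694, 0.104 adjusted), and r was -0.70 without CCH replicates 3 and 4. Where the level on A_44_P323349 was high for its group, that on A_44_P349199 was low. For the Gria3 probes r was 0.20 (exact permutation p = 0.582) and rho 0.45 (exact permutation p = 0.163), and r was 0.48 without the first replicate of each group. Each slide holds 4 arrays, too few for a correlation within a slide.

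**Figure D3:**
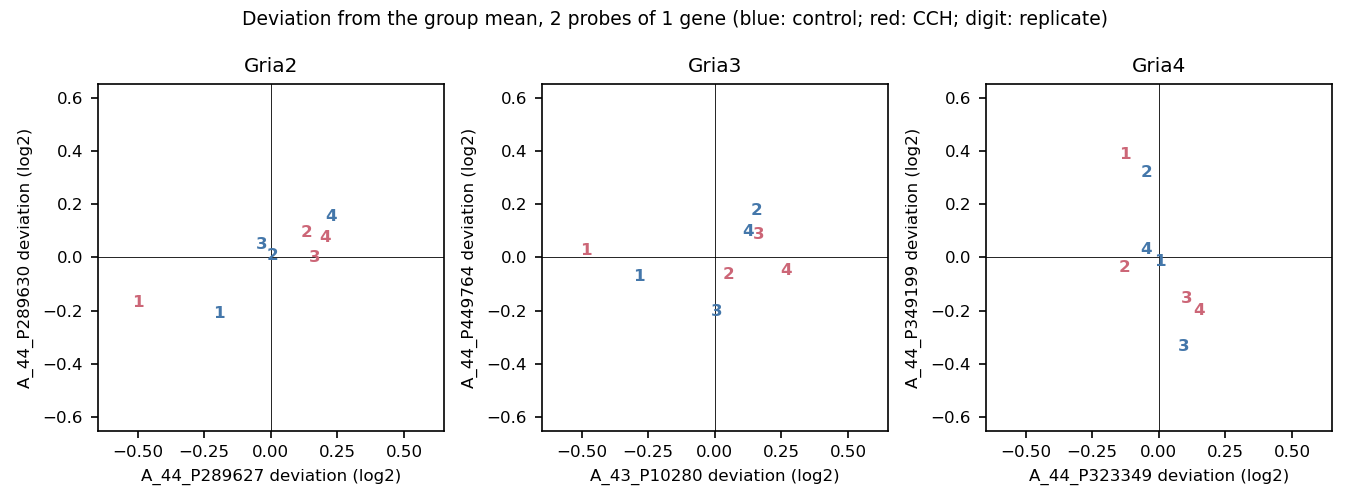
Deviation of each array from its group mean in log2 units for the 2 probes of Gria2, Gria3 and Gria4, with 1 probe on each axis. Digits are replicate numbers of control (blue) and CCH (red); the Gria2 arrays rise together (r = 0.85), the Gria4 arrays fall from upper left to lower right (r = -0.74) and the Gria3 arrays show no clear order (r = 0.20).

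The spread of the receptor probes between samples, taken as the within-group SD, had a median of 0.27 on the log2 scale. It was 0.15 without CCH replicate 1, the array that lay apart for Gria2, Gria3 and Grik4. By the same deviations, the named genes most like A_44_P323349 over 8 arrays were Mrpl40 (r = 0.96), Myl1 (r = 0.96), Snapc5 (r = 0.95), Nme3 (r = 0.94) and Grp (r = 0.93). They were the highest of 9705 genes searched and are listed as a description.

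**Figure D4:**
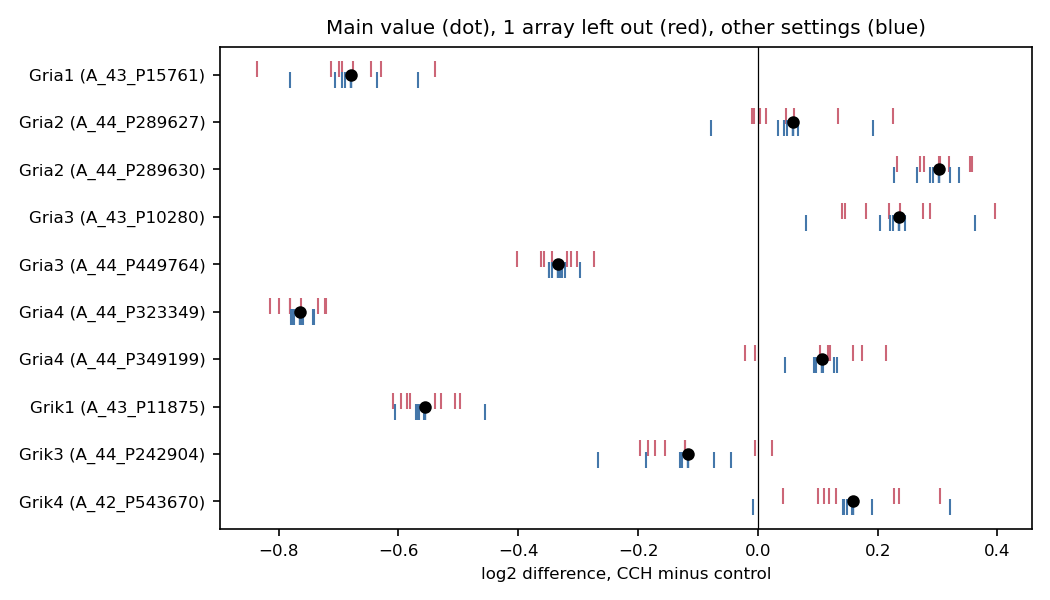
Log2 difference of CCH minus control for each receptor probe in the main setting (dot), with 1 of 8 arrays left out (red ticks) and under 12 other settings (blue ticks; 11 for Grik3). The values for Gria1, Grik1, A_44_P323349 of Gria4 and A_44_P449764 of Gria3 stay below 0 throughout, and those for A_44_P289627 of Gria2, A_44_P349199 of Gria4, Grik3 and Grik4 cross 0. Settings that change only the filter, the replicate block or the moderation leave the main value as it is.

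Genes whose products assemble, anchor, modify or accompany these receptors were examined in 6 lists. Of 52 genes 39 were tested, each by its brightest probe, with 29 higher and 10 lower in CCH. Limma called 0 of them, and at an unadjusted p under 0.05 it had 2 higher and 1 lower, against 15.4% of all tested probes in either direction. Their median log2 difference was 0.08, against 0.03 over all tested probes.

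AMPA receptor auxiliary subunits, which ride with the channel, were higher for 6 of 7 tested genes, with 0 called. Cnih2, a cornichon that escorts AMPA receptors, was at 0.26 ± 0.11 (SE), or 0.15 with the choroid plexus covariate. Cacng4, a transmembrane regulatory protein of the same receptors, was at -0.05 ± 0.17 (SE), and between -0.25 with normexp and 0.06 without control replicate 2 over the alternatives. Genes for assembly, trafficking and scaffolds were higher for 7 and lower for 4 of 11. The extremes were Abhd6, whose product limits surface AMPA receptors, at 0.18 ± 0.09 (SE), and Nsf, the fusion ATPase that binds GluA2, at -0.22 ± 0.15 (SE). Extracellular clustering proteins were higher for 6 of 7. Olfm2 was at 0.33 ± 0.26 (SE), or 0.09 without CCH replicate 1, and Olfm1 at -0.06 ± 0.15 (SE), or between -0.19 with the choroid plexus covariate and 0.06 without CCH replicate 1 over the alternatives.

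Kainate receptor partners were higher for 3 of 4 genes. Neto1, an auxiliary subunit of kainate receptors, was at 0.28 ± 0.16 (SE), or 0.15 both without CCH replicate 1 and with normexp. C1ql3, a secreted synaptic organiser, was at -0.07 ± 0.20 (SE), or 0.08 without CCH replicate 1, and its dimmer probes were at 0.23 and 0.33. The 3 RNA editing genes were all higher on their brightest probes. Adarb2 was at 0.38 ± 0.13 (SE), and at -0.02 with normexp, while Adarb1 was at 0.04 ± 0.21 (SE) and its dimmer probe at -0.03. Kinases that act on the receptors were higher for 4 and lower for 3 of 7. Camk2g, a calcium/calmodulin-dependent kinase subunit, was at -0.47 ± 0.09 (SE, limma adjusted p = 0.0723) with no overlap between the groups. Camk2b was at 0.23 ± 0.14 (SE), or 0.13 with the choroid plexus covariate, and its dimmer probes were at 0.45 and -0.11. None of these genes was called.

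In whole hippocampus, fewer cells of a type and less RNA per cell cannot be told apart. Markers of the labelled tissue were present. Of 10 CA pyramidal markers 8 were tested, and of 8 dentate granule markers 4, and all 12 were well above background on every array. So were the tested markers of thalamus and habenula (4 of 6) and of neocortex (2 of 5), so this does not set the labelled tissue apart. GluA4 and GluK1 are prominent in interneurons. Of 14 interneuron markers 12 were tested by their brightest probes, 8 of them lower and 4 higher in CCH, with 0 called and a median of -0.14. The 4 higher were Sst at 0.30, Npy at 0.15, and Gad1 and Kcnc1 at 0.13 each. Reln had the largest fall, at -0.79, while its dimmer probe was at 0.49. Lhx6, at -0.47, missed the background limit on CCH replicate 3. The interneuron score, the mean deviation of a list's markers from their averages over 8 arrays, was -0.02 to 0.15 in the controls and -0.19 to 0.04 in CCH. Pvalb and Vip had no named probe, and Gad1 and Gad2 were well above background on all arrays. The CA pyramidal score was -0.26 to -0.00 in the controls and 0.05 to 0.14 in CCH. Other scores overlapped between controls and CCH: dentate granule (-0.16 to 0.11, then -0.13 to 0.12) and astrocyte (-0.17 to 0.09, then -0.04 to 0.17). The same held for thalamus and habenula (-0.39 to 0.31, then -0.37 to 0.16) and neocortex (-0.14 to 0.20, then -0.18 to 0.23). The oligodendrocyte score was -0.32 to -0.06 in the controls and 0.09 to 0.35 in CCH, with 10 of 10 markers higher. The oligodendrocyte precursor score was -0.19 to -0.09 in the controls and -0.01 to 0.25 in CCH, with 5 of 6 markers higher. Bmp4 was at 0.78, Neu4 at 0.34, Matn4 at 0.31 and Bcas1 at 0.23, with its dimmer probe at -0.10. Cspg4 was at 0.07 and Pdgfra at -0.16. Of 8 microglia markers 6 were lower, with a score of -0.02 to 0.15 in the controls and -0.14 to 0.03 in CCH. Choroid plexus scores were -3.57 and -3.63 in CCH replicates 2 and 4 and between -0.57 and 2.06 on the other 6 arrays. With that score as a covariate, A_44_P323349 of Gria4 was at -0.76 and Grik1 at -0.61. In that setting 0 receptor probes and 1 of 31612 tested probes were called, so the Gria4 call was lost. The part of the other marker shifts in the receptor values was not tested.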

How the data were processed

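Per the file headers and the submitters' processing notes, the authors extracted spots with Agilent Feature Extraction 9.5. The deposited processed signal is a linear intensity, background-subtracted and detrended within each array, with no scaling between arrays. The deposited value table is the same intensity rounded (largest relative difference 0.00498). Over non-control spots the medians of its columns, in replicate order, were 88.2, 69.9, 76.4 and 73.3 (control), then 113, 94.3, 85.1 and 79.4 (CCH).

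Samples were grouped by title. Probes were named by RefSeq accession through a reference table of GRCr8 (15184 of 41012 probes), while the array grid names rn4. Spots with outlier marks (55 to 122 per array) were dropped, and 0 were saturated. The share of spots well above background was 76.3% to 79.9% per array. Precision is limited by how many arrays there are. Log2 signals minus the array's 75th percentile (563 to 700 in controls, 642 to 882 in CCH) were averaged per probe. Probes well above background on at least 4 of 8 arrays, with at least 3 values per group, were tested two-sided by moderated linear models in limma 3.58.1 under R 4.3.3, with p-values adjusted by Benjamini-Hochberg across every probe tested and called under 0.05. The code was tested on simulated data.

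The members and lists were chosen with earlier results of these data known. Partner genes were named as the largest rise and fall of each list by brightest probe. Same-gene probe correlations were planned as a description, and their permutation p-values were added. Normexp (offset 50) used the median spot signal, since the files used here hold no mean signal. A further list of related genes is not reported here.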

Additional observations from a re-analysis of the deposited data

Results flagged for a closer look

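In 42 groups of 4 arrays (the receptor probes and the named partner genes), 3 held an array far from the other 3 by Dixon's ratio, and chance gives about 1 in 20. CCH replicate 1 was the lowest on A_44_P289627 of Gria2, at 2.25 against 2.89 to 2.96 on the other CCH arrays. It was also the lowest on the Grik4 probe, at 1.00 against 1.56 to 1.61. Control replicate 4 was the highest on the Abhd6 probe, at 0.79 against 0.58 to 0.59 on the other controls.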

How the results depend on the processing

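All 20 alternatives kept the direction of the log2 difference for Gria1, Grik1, A_44_P323349 of Gria4, A_44_P449764 and A_43_P10280 of Gria3 and A_44_P289630 of Gria2. For the probes whose groups did not overlap, leaving out 1 array could not have turned it. The filter, replicate block and moderation settings leave the estimate of a receptor probe as it is, so they could not have turned it either. Of all tested probes 55 were called (24 higher, 31 lower), and 1 receptor probe. With normexp 246 were called (69 higher, 177 lower), with all 8 arrays above background 209, with trended and robust moderation 220 and with array weights 1339 (743 higher, 596 lower), where Gria4 and Grik1 made 2 receptor probes. Without a detection filter 29 were called, and with the choroid plexus covariate 1, each with 0 receptor probes. An unadjusted limma p under 0.05 was held by 5288 of 41009 probes without the filter, 5 of them receptor probes. With the covariate it was held by 3916 of 31612 probes, 4 of them receptor probes. Leaving out 1 array gave 0 to 708 calls and 0 to 2 receptor probes. The 708 (409 higher, 299 lower) and the 2 came without CCH replicate 1, and without any other array the receptor count was 0. Without any of those others, 4 or 5 receptor probes and 3680 to 4660 of 31612 tested probes had an unadjusted limma p under 0.05. With the replicate number as a block, limma called 0 probes and 0 receptor probes (4963 and 5 at an unadjusted p under 0.05). Same-numbered arrays correlated at 0.15, 0.08, -0.01 and 0.25 for numbers 1 to 4, so the numbers were not taken as pairs. The cause of these shifts was not tested. A slide or scan block was not run, since each slide held 1 group. Grik3 was the receptor probe that missed the background limit on 1 array.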
